A study of Homo sapiens with 18 samples.

Results

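Tumour cells act on T cells through surface molecules, secreted molecules and enzymes that restrain or help the attack. The transcripts of 10 such genes were followed in OVCAR3 cells exposed to antibodies. They are called ligand genes here, although IDO1 codes for an enzyme. The genes were chosen by symbol: CD274, PDCD1LG2, CD276, VTCN1, PVR, CD47, IDO1, LGALS9, ICAM1 and CD58, which are 10 of the 55765 distinct gene symbols in the count tables. The choice was made with earlier results of these data known, so that counts of called members describe the set and do not test it. OVCAR3 is an established human line of high-grade serous ovarian carcinoma, an adherent epithelial line that was cultured here without immune cells in RPMI medium with 2% fetal bovine serum. RNA was sequenced in 18 libraries that formed 2 series of 9, with 3 libraries in each group. The first series held untreated cells and cells given IgA or IgG without a defined antigen, at 0.5 µg/ml. The second held its own untreated cells and cells given, at the same dose, IgA directed at the neurotrophin BDNF (BDNF IgA) or at the tetraspanin TSPAN7 (TSPAN7 IgA). The labels give an incubation of 24 h. The study asked how ovarian cancer cells answer IgA, which binds the polymeric immunoglobulin receptor on epithelial cells and is carried through them. All groups are 1 cell line, and the labels do not say whether the replicates were separate cultures, so that p-values describe the spread between these libraries.

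Checkpoint ligands bind inhibitory receptors on T cells and lower their activity. PD-L1 (CD274) and PD-L2 (PDCD1LG2) bind PD-1, B7-H3 (CD276) and B7-H4 (VTCN1) belong to the same B7 family, the poliovirus receptor (PVR, CD155) binds the inhibitory receptor TIGIT and the activating receptor CD226, galectin-9 (LGALS9) binds TIM-3, and indoleamine 2,3-dioxygenase (IDO1) degrades the tryptophan that T cells need. CD47 binds SIRPα on macrophages and restrains phagocytosis. The adhesion ligands work the other way: ICAM-1 (ICAM1) binds the integrin LFA-1 and LFA-3 (CD58) binds CD2, and both help a T cell to hold its target. In epithelial cells interferons acting through STAT proteins are known inducers of CD274 and IDO1, and NF-κB, released from its inhibitor IκBα (NFKBIA), is a known inducer of ICAM1.

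Promoter windows from RefSeq, on assembly GRCh38.p14, span 250 bases before to 50 bases after a gene's start, and the table used held such windows for 8 of the 10 genes (IDO1 and PDCD1LG2 were not among them). Stretches of the 3 genes below are shown because their transcripts had the largest called changes of the set against untreated cells and because these windows hold matches to the response motifs of the pathways just named. Capitals mark matches, on either strand, to an NF-κB core (GGANNNTCC), a STAT site (TTCNNNGAA) or an interferon-stimulated response element (ISRE). The CD274 stretch is chr9:5450322-5450451, from base -220 to -91 before the start, the ICAM1 stretch is chr19:10270920-10271059, from base -200 to -61, and the LGALS9 stretch is chr17:27631068-27631188, from base -120 to the first transcribed base. All are shown 5′ to 3′ on the plus strand, which is the coding strand of each gene.
CD274: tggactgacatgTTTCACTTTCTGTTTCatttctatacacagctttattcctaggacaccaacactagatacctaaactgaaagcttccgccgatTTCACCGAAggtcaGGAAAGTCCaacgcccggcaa
ICAM1: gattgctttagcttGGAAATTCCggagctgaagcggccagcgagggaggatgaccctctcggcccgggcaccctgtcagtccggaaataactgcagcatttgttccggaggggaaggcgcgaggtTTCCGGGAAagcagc
LGALS9: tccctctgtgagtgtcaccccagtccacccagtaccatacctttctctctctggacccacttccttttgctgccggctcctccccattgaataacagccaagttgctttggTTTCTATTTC
In CD274 the capitals are, from the left, 2 overlapping interferon-stimulated response elements, a STAT site and an NF-κB core. ICAM1 has an NF-κB core followed by a STAT site, and LGALS9 has 1 interferon-stimulated response element that ends on the first transcribed base. Of 35116 promoter windows in the table, 9.32% held the NF-κB core, 7.66% the STAT site and 3.57% the interferon-stimulated response element. An NF-κB core was also found 246 bases before the start of VTCN1 and 58 bases before the start of CD276 in 1 of its 2 windows, and the windows of CD47, CD58 and PVR held none of these letters. A match describes the letters only.

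The 9 libraries of the first series held 27920733 to 42371474 counts each, those of the second 39254350 to 47381836. IgA replicate 3 stood apart, with 19.1% of its counts from the mitochondrial genome against 5.75% to 8.32% in the other libraries of its series, and results that rest on it are given without it too. The common dispersion, a measure of the spread between replicates, was 0.0307 in the first and 0.00303 in the later series, which gives wider intervals for equal counts in the first. All 8 OVCAR3 and serous carcinoma markers were detected in every library (PAX8 at 16861 counts or more, WT1 at 692 or more). Of 8 leukocyte markers, 4 (CD2, CD3E, ITGAM and MS4A1) never exceeded 3 counts. The others were detected at low levels: over all libraries PTPRC ranged from 6 to 56 raw counts, CD14 from 9 to 45, CD68 from 5 to 28 and LYZ from 0 to 18. Summed over the 8 markers, a library held between 36.4 and 89.6 normalised counts. Groups were tested only within a series. Values are normalised counts, that is, counts brought to the average TMM-corrected depth of their series, unless raw counts are named. In bulk RNA, more transcript per cell and more cells with the transcript cannot be told apart.

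In untreated cells the 10 genes spanned a wide range of levels per length, given as counts per kilobase of exon at a common depth (RPKM with TMM-corrected library sizes). CD47 stood first in both series, at 158 ± 10.1 in the first and 88.3 ± 2.59 in the second (SD, n = 3). CD276 came next, at 15.0 ± 0.59 and 15.3 ± 0.87, followed by PVR at 9.53 ± 0.42 and 8.74 ± 0.41. CD58 stood at 5.97 and 6.34 and ICAM1 at 4.02 and 4.09, so that these 5 genes kept the same order among themselves in both sets of untreated cells. Below them LGALS9 was at 1.28 and 1.41 and CD274 at 0.206 and 0.153, and PDCD1LG2 was listed at 0 counts in all 3 untreated libraries of the first series and at 2, 8 and 3 counts in the second. IDO1 and VTCN1 had different places in the order of each series: IDO1 was at 0.783 ± 0.080 in the first and 7.76 ± 0.37 in the second, whereas VTCN1 was at 3.57 ± 0.16 in the first and 0.646 ± 0.10 in the second. These values are set side by side without a test, because each series has its own count table. Neighbours in the order had ranges over libraries that did not overlap, except ICAM1 and VTCN1 in the first series (3.47 to 4.63 and 3.38 to 3.67). With the length of the canonical transcript in place of all exons, VTCN1 and LGALS9 changed places in the first series and the rest of the order was as given.

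**Figure D1:**
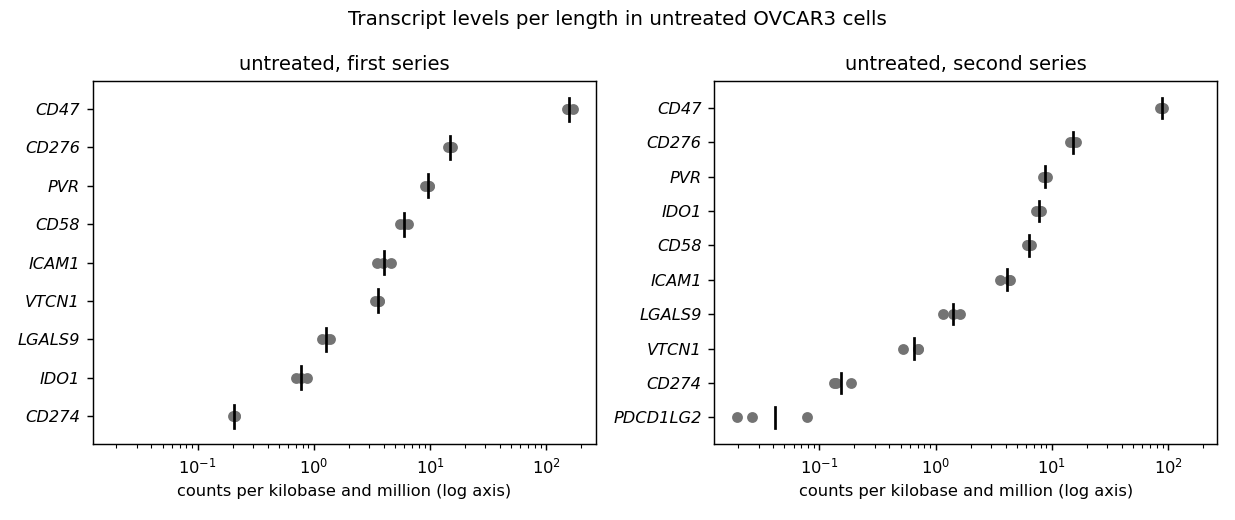
Levels of the ligand transcripts in untreated OVCAR3 cells, as counts per kilobase of exon at a common depth (RPKM, log axis), for the first series (left) and the second (right). Points are the 3 libraries and bars their mean. CD47 lies highest at 158 and 88.3 and CD274 lies below 0.25 in both, IDO1 and VTCN1 sit in different places in the panels, and PDCD1LG2 is drawn only in the second series because it was at 0 in the first.

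Setting IgA beside IgG compares antibody preparations of different class. Class and other differences between the preparations cannot be told apart. In the first series 9 of the 10 genes passed the filter on low counts, all but PDCD1LG2, and 3 of them rose with IgA over IgG: ICAM1, CD276 and PVR (edgeR quasi-likelihood test, Benjamini-Hochberg adjusted p under 0.05 over all 18012 genes tested). This is to be read against 12.6% of all tested genes called higher and 11.6% called lower in that comparison. No member was called lower by edgeR, DESeq2 or limma voom (0 in each), and 1, CD274, was lower at an unadjusted p under 0.05. Against untreated cells 0 were lower by any of these tools or at an unadjusted p under 0.05. In either direction, 6758 of the 18012 tested genes had an edgeR unadjusted p under 0.05 against IgG and 6777 against untreated cells. DESeq2 called 2450 and 2511 of 20671 genes lower, and limma voom 1845 and 1828 of 18012. ICAM1, CD276 and PVR also rose against untreated cells, among 12.9% of all tested genes called higher and 12.1% called lower. The members had a median log2 fold change of 0.11 against IgG and 0.09 against untreated cells, beside -0.01 in both for all genes. The comparisons share the IgA libraries and are not independent of each other.

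ICAM1 (chromosome 19, 10381769 to 10397291, GRCh37, as are all gene positions here) changed most. Its normalised counts were 423, 479 and 563 in untreated cells, 452, 474 and 580 with IgG and 4023, 2517 and 2785 with IgA. Every IgA library lay far above every other library of the series. The log2 fold change was 2.63 against IgG (SE 0.18, edgeR adjusted p 1.83e-06), a 6.20-fold rise with a 95% interval from 4.72 to 8.15, and 2.67 against untreated cells (SE 0.18, edgeR adjusted p 1.41e-06). Without IgA replicate 3 it was 2.70 against IgG (edgeR adjusted p 3.94e-07). CD58, the other adhesion ligand in the set (chromosome 1, 117057156 to 117113661), did not follow it: the counts were 410, 373 and 344 in untreated cells, 430, 363 and 330 with IgG and 399, 386 and 313 with IgA, and the groups overlapped. Its log2 fold change against IgG was -0.03 with a 95% interval from -0.38 to 0.32, so that changes of the size seen for ICAM1 lie outside it.

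The B7 family member CD276 (chromosome 15, 73976307 to 74006855) was at 2767, 2986 and 2933 normalised counts in untreated cells, 3084, 2868 and 2721 with IgG and 4383, 4050 and 3968 with IgA. The IgA libraries lay above all others, with log2 fold changes of 0.52 against IgG (SE 0.09, edgeR adjusted p 0.00198) and 0.51 against untreated cells. Without IgA replicate 3 the value against IgG was 0.54 (edgeR adjusted p 0.00108). PVR (chromosome 19, 45147098 to 45169430) was at 3573, 3325 and 3614 in untreated cells, 3884, 3460 and 3921 with IgG and 4307, 4622 and 5053 with IgA. The IgA libraries lay above all others, while IgG and untreated libraries overlapped, and the log2 fold changes were 0.31 against IgG (SE 0.10, edgeR adjusted p 0.0345) and 0.41 against untreated cells (SE 0.10, edgeR adjusted p 0.00901). The rise of PVR over IgG was not called without IgA replicate 3 (0.25, edgeR adjusted p 0.0676), without any 1 of the IgG libraries, or without untreated replicate 1 or 2. The 3′ end of the PVR gene overlaps CEACAM19 on the same strand, which had 79 to 128 counts in the IgA libraries and 217 to 484 in the other libraries of the series.

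The calls of CD276 and PVR also depend on the scaling. Scaling by library size alone in place of TMM moved the median over all genes, in log2 units, to -0.25 against IgG and -0.22 against untreated cells, and gave 873 genes higher and 3629 lower against IgG in place of 2265 and 2095, and 1001 higher and 3291 lower against untreated cells in place of 2316 and 2187. Under it ICAM1 was the 1 member called higher (2.40 against IgG), CD276 was at 0.28 (edgeR adjusted p 0.115) and PVR at 0.07 (edgeR adjusted p 0.696) against IgG, and CD274 was called lower against IgG.

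CD274, the gene of PD-L1 (chromosome 9, 5450503 to 5470566), moved the other way at a low level. Its raw counts were 29, 36 and 36 in untreated cells, 34, 31 and 44 with IgG and 12, 17 and 14 with IgA. The IgA libraries lay below all others of the series, with means of 17.5 ± 4.35 normalised counts with IgA, 36.1 ± 10.7 with IgG and 29.8 ± 0.69 in untreated cells (SD, n = 3). The log2 fold change was -1.05 against IgG (95% interval -1.98 to -0.12, edgeR adjusted p 0.0943) and -0.78 against untreated cells (-1.71 to 0.16, edgeR adjusted p 0.209), neither of which passed the test. Without IgA replicate 3 the value was -1.23 against IgG (edgeR adjusted p 0.0648) and -0.96 against untreated cells (edgeR adjusted p 0.143). With library size scaling the value against IgG was -1.29 (edgeR adjusted p 0.0453). PDCD1LG2, its neighbour on chromosome 9 (5510531 to 5571282) that codes for PD-L2, had 0 counts in each untreated library, 4, 0 and 1 with IgG and 6, 9 and 5 with IgA. Set against a floor of 3 counts per untreated library, its observed mean with IgA was 2.93-fold higher, a ratio that allows no error for the IgA counts. It was too low for the edgeR test, and DESeq2, which kept it, gave adjusted p values of 0.0172 against untreated cells and 0.327 against IgG.

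The remaining members were not called with IgA. VTCN1 (chromosome 1, 117686209 to 117753582) was at 389, 361 and 392 normalised counts in untreated cells, 250, 390 and 478 with IgG and 304, 353 and 158 with IgA, with a log2 fold change of -0.44 against IgG (95% interval -1.03 to 0.14). IgA replicate 3 held its lowest value, and without it the value was -0.18. IDO1, on chromosome 8, was at 87.2, 107 and 95.1 in untreated cells, 63.5, 102 and 102 with IgG and 141, 85.9 and 185 with IgA, and its log2 fold change of 0.61 against IgG had an interval from -0.03 to 1.26. IgA replicate 3 held its highest value, and without that library the change was 0.35 (edgeR adjusted p 0.412), whereas without IgA replicate 2 it was 0.86 (edgeR adjusted p 0.0346). LGALS9 (chromosome 17, 25956824 to 25976586) and CD47 (chromosome 3, 107761938 to 107810709) differed from IgG by -0.05 and 0.11, with overlapping groups and intervals from -0.47 to 0.37 and -0.15 to 0.36.

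**Figure D2:**
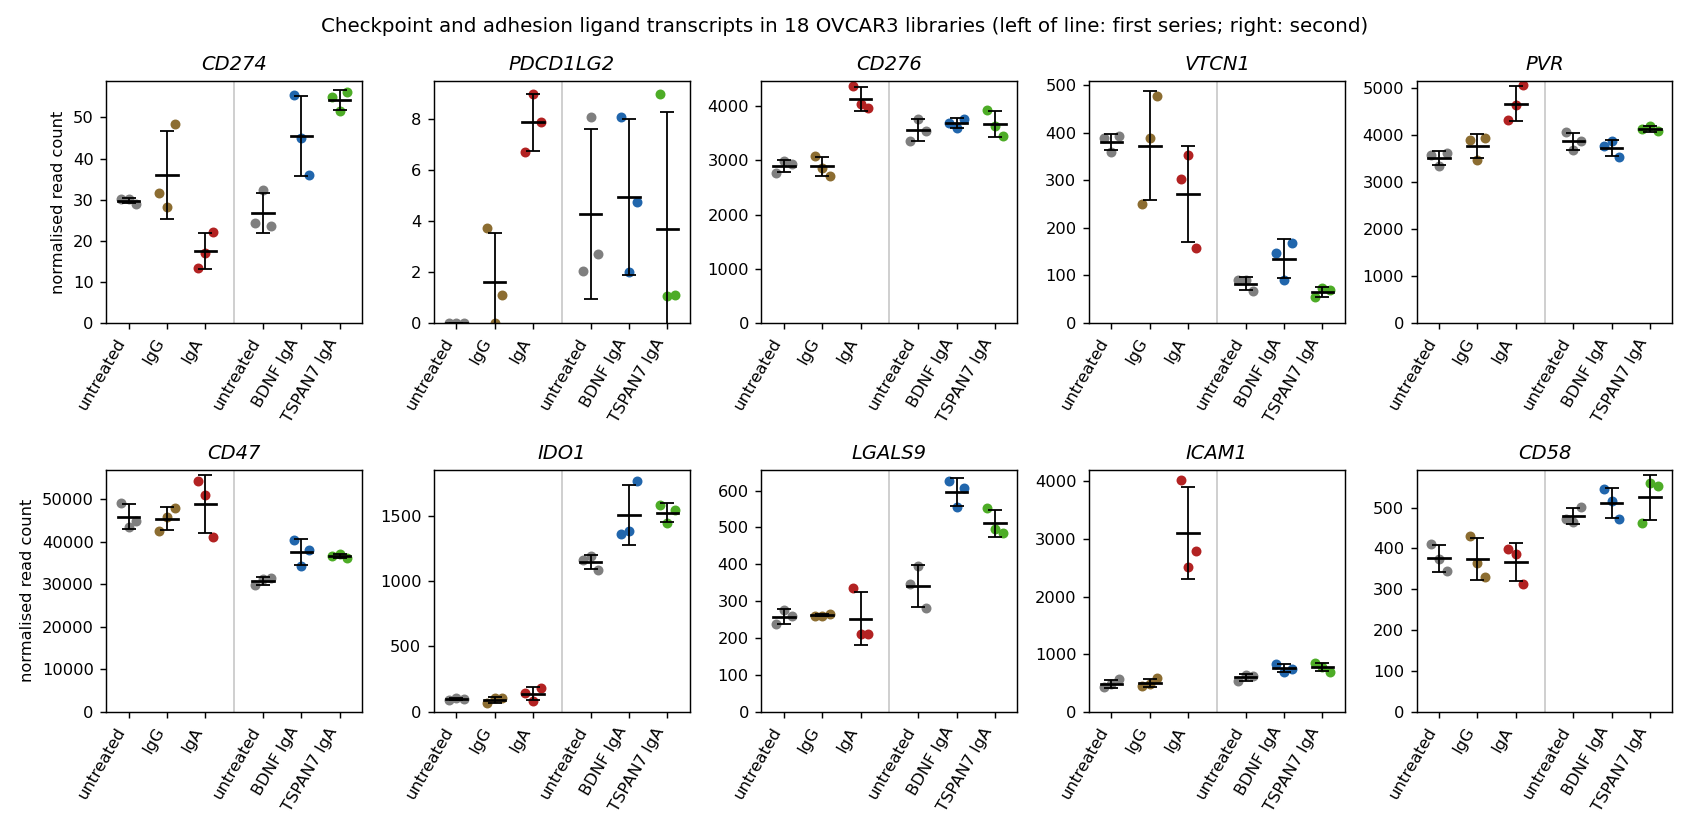
Normalised read counts of the 10 genes in every library, with the first series left of the grey line and the second right of it. Coloured points are libraries, long bars means and whiskers SD (n = 3, cut at 0), and each panel has its own axis from 0. ICAM1 with IgA stands at 2517 to 4023, against at most 580 in the other libraries of the first series, and CD274 is lower with IgA than in the rest of the first series and higher with both IgAs than in untreated cells of the second.

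IgG against untreated cells asked whether an antibody of another class has an effect of its own. No gene was called in either direction by edgeR (0 higher, or 0% of genes tested, and 0 lower, or 0%), with 89 genes at an unadjusted p under 0.05, and DESeq2 and limma voom also called 0, with 139 and 1051 genes at an unadjusted p under 0.05. The edgeR fit took 1 spread per gene from all 9 libraries, and the IgA replicates differed most from each other. With the 6 IgG and untreated libraries alone, edgeR had 338 of 17537 genes at an unadjusted p under 0.05 and called 0. Among the members 0 were called by any of these tools and 0 reached an unadjusted p under 0.05. Their log2 fold changes ran from -0.11 for IDO1 to 0.27 for CD274, and the groups of all 10 overlapped. The 95% interval for ICAM1 ran from -0.35 to 0.42 and that for CD274 from -0.61 to 1.15, so that a rise of CD274 by that much was not excluded.

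In the second series the antigen-specific IgA treatments were compared with their own untreated cells. With BDNF IgA, 5 of 9 tested members rose and 0 fell: LGALS9, VTCN1, IDO1, ICAM1 and CD47. With TSPAN7 IgA, 5 of 9 rose and 0 fell: CD274, LGALS9, IDO1, ICAM1 and CD47. Over all 18732 genes tested, 4.49% were called higher and 3.18% lower with BDNF IgA and 4.46% and 4.08% with TSPAN7 IgA. DESeq2 also called 5 members higher and 0 lower in each comparison, limma voom called 6 and 5 higher and 0 lower, and 0 members were lower at an unadjusted p under 0.05. Over all genes DESeq2 called 875 of 14426 higher with BDNF IgA and 868 of 15095 with TSPAN7 IgA, and limma voom 1339 and 1270 of 18732. In either direction 4131 and 4138 of 18732 genes had an edgeR unadjusted p under 0.05. The members' median log2 fold changes were 0.34 and 0.25, beside 0.00 for all genes in both. These comparisons share the 3 untreated libraries, and the 2 treatments' values are given side by side.

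LGALS9, whose product engages TIM-3, rose most with BDNF IgA. It was at 345, 397 and 281 normalised counts in untreated cells, 626, 554 and 608 with BDNF IgA and 552, 496 and 485 with TSPAN7 IgA. All treated libraries lay above all untreated ones, and the log2 fold changes were 0.81 (SE 0.10, edgeR adjusted p 2.47e-05) and 0.59 (SE 0.10, edgeR adjusted p 0.000918). The near-identical genes LGALS9B and LGALS9C had at most 5 and 8 counts in any library, but reads shared with them could have been lost from LGALS9 in counting. IDO1 stood at 1161, 1196 and 1087 in untreated cells, 1363, 1384 and 1768 with BDNF IgA and 1585, 1442 and 1548 with TSPAN7 IgA. It rose without overlap by 0.39 (SE 0.08, edgeR adjusted p 0.00338) and 0.41 (SE 0.08, edgeR adjusted p 0.00213).

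CD274 was at 24, 32 and 26 raw counts in untreated cells, 55, 45 and 38 with BDNF IgA and 55, 49 and 52 with TSPAN7 IgA. Both treated groups lay above the untreated one. With TSPAN7 IgA the rise was 2.03-fold with a 95% interval from 1.40 to 2.94 (log2 fold change 1.02, SE 0.26, edgeR adjusted p 0.0144), and it was not called without TSPAN7 IgA replicate 3 (edgeR adjusted p 0.0511), untreated replicate 1 (0.0614) or untreated replicate 3 (0.0692). With BDNF IgA the log2 fold change was 0.77 (95% interval 0.23 to 1.31, edgeR adjusted p 0.0761), which did not pass, although limma voom called it (adjusted p 0.0392). The difference between the treatments was not called (0.26, 95% interval -0.24 to 0.76). PDCD1LG2 had 2, 8 and 3 raw counts in untreated cells, 8, 2 and 5 with BDNF IgA and 9, 1 and 1 with TSPAN7 IgA, too few to compare.

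ICAM1 rose with both, from 528, 644 and 621 normalised counts to 831, 691 and 750 with BDNF IgA and 842, 781 and 696 with TSPAN7 IgA. The log2 fold changes were 0.34 (SE 0.09, edgeR adjusted p 0.0207) and 0.37 (SE 0.09, edgeR adjusted p 0.0110). The first was not called without BDNF IgA replicate 1 (0.134) or untreated replicate 1 (0.131), and the second not without TSPAN7 IgA replicate 1 (0.0727) or 2 (0.0537) or untreated replicate 1 (0.0809), all edgeR adjusted p values. CD47, the most abundant transcript of the set, went from 29822, 31124 and 31562 to 40528, 34366 and 38057 with BDNF IgA and 36720, 37055 and 36105 with TSPAN7 IgA. All treated libraries were higher, by log2 fold changes of 0.29 (SE 0.05, edgeR adjusted p 0.000930) and 0.25 (SE 0.05, edgeR adjusted p 0.00292), or 1.22-fold and 1.19-fold.

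VTCN1, the gene of B7-H4, was the 1 member called by edgeR between the 2 treatments. It was at 90.2, 91.0 and 67.7 normalised counts in untreated cells, 147, 90.9 and 169 with BDNF IgA and 53.9, 73.8 and 70.4 with TSPAN7 IgA. BDNF IgA replicate 2 lay among the untreated libraries and the other two lay well above them, while the TSPAN7 IgA libraries overlapped the untreated ones. Between the treatments the groups did not overlap, and the log2 fold change of TSPAN7 IgA against BDNF IgA was -1.04 (95% interval -1.49 to -0.59, edgeR adjusted p 0.00449), among 4.5% of all genes called lower and 3.42% called higher. The rise with BDNF IgA over untreated cells was 0.71 (SE 0.21, edgeR adjusted p 0.0365), and it was not called without BDNF IgA replicate 1 or 3 or without any 1 of the untreated libraries. With TSPAN7 IgA the value was -0.33 (95% interval -0.80 to 0.14).

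Besides VTCN1, LGALS9 had lower counts under TSPAN7 IgA than under BDNF IgA at an unadjusted p under 0.05, making 2 such members. Its libraries did not overlap between the treatments, and the difference of -0.22 (95% interval -0.43 to -0.01, edgeR adjusted p 0.189) was not called. In either direction, 4222 of the 18732 tested genes had an edgeR unadjusted p under 0.05 between the treatments. No member was higher with TSPAN7 IgA than with BDNF IgA by edgeR (0 called, 1 at an unadjusted p under 0.05). That 1 was PVR, at 4115, 4185 and 4073 normalised counts with TSPAN7 IgA against 3762, 3870 and 3519 with BDNF IgA and 4047, 3685 and 3860 in untreated cells. The treatments' libraries did not overlap, and the difference of 0.15 (SE 0.05) had an edgeR adjusted p of 0.0597 and was called by DESeq2 (adjusted p 0.0387) and limma voom (adjusted p 0.0248). Neither treatment was called against untreated cells for PVR (-0.06 and 0.09), CD276 (0.05 and 0.05) or CD58 (0.09 and 0.13). CD276 lay at 3363 to 3768 in untreated cells, 3603 to 3775 with BDNF IgA and 3450 to 3934 with TSPAN7 IgA. The 95% intervals of its 2 changes each ran from -0.06 to 0.16.

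**Figure D3:**
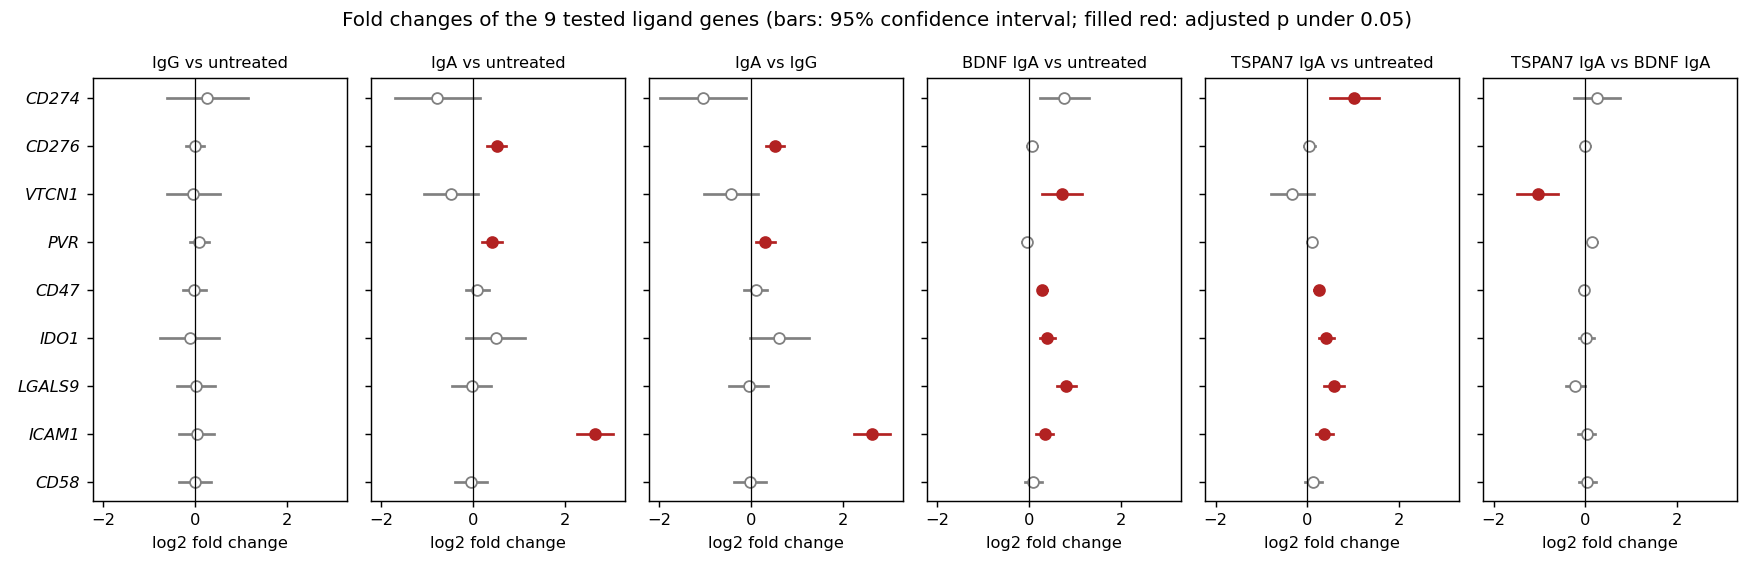
Log2 fold changes of the 9 tested genes in the 6 comparisons, with 95% confidence intervals, filled red where the edgeR adjusted p was under 0.05. ICAM1 stands at 2.63 and 2.67 in the IgA panels and at 0.34 and 0.37 with the antigen-specific IgAs. LGALS9 (0.81 and 0.59), IDO1 (0.39 and 0.41) and CD47 (0.29 and 0.25) are red only with antigen-specific IgA against untreated cells. With IgA against untreated cells IDO1 was at 0.50 (-0.14 to 1.14) and CD47 at 0.09 (-0.16 to 0.34), intervals that hold those values. None of the 9 genes is red with IgG against untreated cells.

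Lists of genes around the same pathways were counted in the same fits. They were chosen with earlier results of these data known and are described by their counts, with no test of a list. These counts are to be read against the share of all tested genes called. With IgA against untreated cells it was 12.9% higher and 12.1% lower. It was 4.49% and 3.18% with BDNF IgA and 4.46% and 4.08% with TSPAN7 IgA. Of 22 calls named below from these lists and the marker lists with IgA against untreated cells, 22 kept their direction without IgA replicate 3 and 21 were still called. The exception was ITGB2 (0.77, edgeR adjusted p 0.0636), and without that library IRF1 was at 0.92, WT1 at -0.98 and BIRC3 at 3.08. In the list of NF-κB subunits and inhibitors, 8 of 9 genes rose with IgA against untreated cells, with a median log2 fold change of 1.93. TNFAIP3, which encodes the NF-κB inhibitor A20, was at 360, 300 and 325 normalised counts in untreated cells and 5294, 4435 and 7192 with IgA, a log2 fold change of 4.10 (edgeR adjusted p 2.34e-08). BIRC3, an inhibitor of apoptosis, rose by 3.80 and NFKBIA by 2.67, and RELA, a DNA-binding subunit named after its value was seen, was the 1 gene not called (0.02). With BDNF IgA 5 of the 9 rose and with TSPAN7 IgA 4, at smaller sizes: TNFAIP3 by 0.49 and 0.77, NFKBIA by 0.42 and 0.42 and BIRC3 by 0.46 and 0.71. Under library size scaling, and without IgA replicate 3, 7 of the 9 were called higher with IgA.

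In the list of interferon-γ signalling and PD-L1 control, 6 of 14 genes rose and 2 fell with IgA against untreated cells, 4 rose and 1 fell with BDNF IgA, and 5 rose and 1 fell with TSPAN7 IgA. IRF1, a transcription factor that acts on CD274, rose with IgA by 1.26 (edgeR adjusted p 0.00233), and SOCS3, a feedback inhibitor of STAT signalling, fell by 1.22 with IgA, by 0.22 with BDNF IgA and by 0.54 with TSPAN7 IgA. IRF9, a transcription factor of the interferon response, rose by 1.12 with BDNF IgA and 0.95 with TSPAN7 IgA and was at -0.13 with IgA.

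The TNF family list held ligands and the receptors CD40, FAS and TNFRSF14, and its counts cover both. In it 4 of 6 tested genes rose and 1 fell with IgA against untreated cells. With BDNF IgA 3 of 8 rose and with TSPAN7 IgA 2 of 8. Receptors were among the genes that rose with IgA and with BDNF IgA. TNFSF10, which codes for the death ligand TRAIL, fell by 1.91 with IgA (edgeR adjusted p 0.000172), from 318, 283 and 354 normalised counts to 72.9, 111 and 67.9. In the second series it rose by 1.23 with BDNF IgA and 0.59 with TSPAN7 IgA. CD70 and TNFSF9 (4-1BBL), both costimulatory, rose with IgA by 1.25 and 1.23. Among other adhesion ligands 4 of 8 rose with IgA, with ALCAM, a ligand of CD6, at 0.81, CD99 at 0.76 and the junctional molecule F11R at 0.45, and 1 of 9 with each antigen-specific IgA. Under library size scaling the list had 2 higher and 1 lower with IgA, and F11R was not called. Of 5 nectins and nectin-like genes 1 was called with IgA, PVRL3 (NECTIN3), which fell by 0.45, and it fell by 0.18 with TSPAN7 IgA.

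Of 11 tested enzymes and receptors of tryptophan, adenosine and arginine metabolism, 6 rose and 1 fell with IgA against untreated cells. KYNU, which acts downstream of IDO1, rose by 1.66, NT5E (CD73), which makes adenosine, by 1.41, and AHR, a receptor for tryptophan products, by 0.98. With BDNF IgA 3 of 12 rose and with TSPAN7 IgA 2 of 12, among them NT5E with BDNF IgA (0.44). In the CD47 pathway THBS1 (thrombospondin-1), a ligand of CD47, was at 3595, 4940 and 3107 normalised counts in untreated cells and 21308, 30826 and 28018 with IgA, a rise of 2.78 (edgeR adjusted p 8.86e-05), and it rose by 0.88 with TSPAN7 IgA. CALR, a signal for uptake that CD47 opposes, rose by 0.81 and QPCTL, the enzyme that modifies CD47 for SIRPα binding, by 0.60 with IgA, 4 of 5 genes of that list in all and 2 of 5 under library size scaling. The galectin list had 5 tested genes, among them LGALS3BP, whose product binds a galectin and is not one itself. LGALS1 rose with IgA (1.22) and LGALS3BP with BDNF IgA (0.51) and TSPAN7 IgA (0.24). Of the other B7 and CD28 family ligands 4 of 10 were tested, with no call against untreated cells. Their medians were 0.22, 0.06 and -0.01 with IgA, BDNF IgA and TSPAN7 IgA. Of the receptors that bind the ligands of the set, ITGB2, a chain of LFA-1, rose with IgA (0.98).

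**Figure D4:**
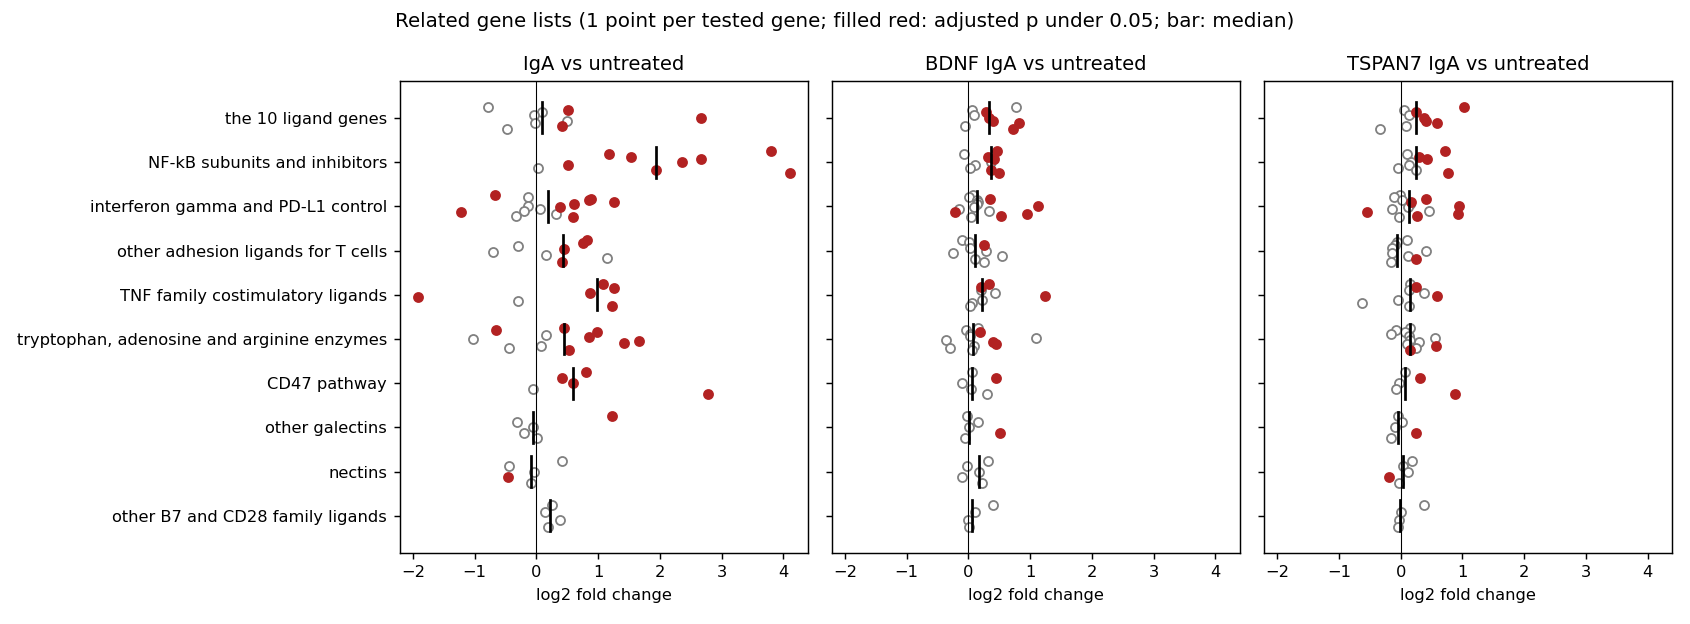
Log2 fold changes against untreated cells of the 10 ligand genes (9 tested) and of 9 related gene lists, for IgA of the first series and BDNF IgA and TSPAN7 IgA of the second. Each point is 1 tested gene, filled red at an edgeR adjusted p under 0.05, and bars are list medians. The TNF family list also holds the receptors CD40, FAS and TNFRSF14, and the galectin list the galectin-binding protein LGALS3BP. The NF-κB list reaches 4.10 with IgA and stays under 0.80 with the antigen-specific IgAs.

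The nearest patterns over the 6 group means were searched among 13339 genes tested in both series, each gene centred on its own series, by Euclidean distance in log2 units. ICAM1 was nearest to NFKBIA (distance 0.0663), followed by BAMBI (0.0761), PLAUR (0.139), AC003092.1 (0.209) and MT2A (0.238). CD274 was nearest to MX2 (0.346), PARP9 (0.380), CHAC1 (0.389), P2RX5 (0.424) and RASL12 (0.441), at larger distances. CD47, which changed little, was nearest to C1orf115 (0.0275), RP4-792G4.2 (0.0403), PRTFDC1 (0.0449), PHLDB2 (0.0475) and ADAM10 (0.0496).

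The leukocyte marker list summed to 63.2 to 76.2 normalised counts with IgA against 51.0 to 58.9 in the IgG and untreated libraries, and to 69.9 to 75.1 with BDNF IgA and 73.9 to 89.6 with TSPAN7 IgA against 36.4 to 85.8 in untreated cells. Of 8 markers, PTPRC (CD45) was called with TSPAN7 IgA (1.39, edgeR adjusted p 0.0487), at 23.0, 25.3 and 10.8 normalised counts against 6.08, 7.08 and 9.03. Of the 4 stromal markers in the tables, COL1A1 and COL1A2 had 514 counts or more in every library while DCN and PDGFRB had at most 16, and the list summed to 2386 to 4850 normalised counts with IgA against 2060 to 2455 in the IgG and untreated libraries. COL1A1 was called with IgA against IgG (0.64, edgeR adjusted p 0.0215), as was COL1A2 (0.66, edgeR adjusted p 0.0351), and the values against untreated cells, 0.51 (edgeR adjusted p 0.0526) and 0.59 (edgeR adjusted p 0.0535), did not pass. Without IgA replicate 3 neither was called in either comparison. Among the 8 OVCAR3 markers 2 rose and 2 fell with IgA against untreated cells, with KRT7 higher (0.50) and WT1 lower (-1.26). Of all tested genes 12.9% were called higher and 12.1% lower there. Under library size scaling 0 of these markers were higher and 3 lower with IgA. With BDNF IgA 3 of the 8 rose and 0 fell, among 4.49% and 3.18% of all tested genes. With TSPAN7 IgA 1 rose, KRT7 (0.54), and 2 fell, WT1 and MUC16, among 4.46% and 4.08%. The part of the markers in the changes of the ligand genes was not tested.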

How the data were processed

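OVCAR3 RNA (RNeasy Plus micro kit, DNase treatment, Ovation Human FFPE RNA-Seq libraries) was sequenced as paired-end reads, which the authors trimmed with cutadapt 1.8.1 and aligned to GRCh37 with STAR. The deposited values are raw read counts per gene with no normalisation. The study's methods name featureCounts as the counter, and the submitters' processing notes name HTSeq 0.6.1. Use of strand was not stated, so that genes overlapping on either strand may share or lose reads. The study's own test was DESeq2. Another description of the experiments gives 8 h of incubation in place of the 24 h of the labels. The first table had 55765 rows and the second 57820, of which 2055 exact repeats were dropped.

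Groups and replicate numbers came from the sample titles. Each table was fitted once over its 9 libraries with edgeR 4.0.16 in R 4.3.3 (TMM, filterByExpr, quasi-likelihood F test, two-sided), with Benjamini-Hochberg adjustment over the genes of each comparison and calls at an adjusted p under 0.05. Standard errors were taken as |log2 fold change|/√F. Normalised counts are counts at the average TMM-corrected depth of their table. Lengths and positions are from GENCODE on GRCh37, promoter windows from RefSeq. Alternatives were DESeq2 1.42.0, limma voom 3.58.1 with sample quality weights, other scalings and filters (among them 50 counts in 3 libraries), a threshold of 0.01, a replicate block, the 6 libraries of a comparison alone, and leaving out each library. Replicates differed by more than sampling noise in a chi-square test, so that no library was counted as a copy. The spread between libraries, not counting error, sets the errors given, and the floor for a gene at 0 was 3 counts per library and covers counting error only. The fit was tested on simulated data.

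The 10 genes and the related lists were chosen with earlier results of these data known. All 10 genes are named. From each related list up to 3 called genes with the largest change against untreated cells are named, and for CD274, ICAM1 and CD47 the 5 genes with the nearest pattern among those with a mean of at least 50 normalised counts in both tables. Other genes are said to be named after their values were seen. The values of 1 further gene of the related lists are left out here.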

Additional observations from a re-analysis of the deposited data

Results flagged for a closer look

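These results stand out because the test of the difference between 2 antibodies of a series was passed, each antibody having been measured against the same untreated cells. ICAM1 differed between IgA and IgG by 2.63 on the log2 scale, CD276 by 0.52 and PVR by 0.31, higher with IgA in 3 of 3 libraries each (edgeR adjusted p 1.83e-06, 0.00198 and 0.0345). The changes against untreated cells were 2.67, 0.51 and 0.41 with IgA and 0.04, -0.00 and 0.10 with IgG. VTCN1 differed between TSPAN7 IgA and BDNF IgA by -1.04 (edgeR adjusted p 0.00449), lower with TSPAN7 IgA in 3 of 3 libraries, where the changes against untreated cells were -0.33 and 0.71.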

How the results depend on the processing

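Of the fold changes of the 9 tested genes under the alternatives, 944 kept their direction and their side of the threshold, 27 kept the direction but lost the call, 6 gained it and 46 changed sign, all of these for changes that were not called. ICAM1 kept its call with IgA under each alternative run. Library size scaling left 1 member higher with IgA against IgG and 1 against untreated cells, and 1 lower against IgG. It turned CD47 to -0.12 against IgG and -0.11 against untreated cells. A threshold of 0.01 left 3 members higher with BDNF IgA and 3 with TSPAN7 IgA. DESeq2 and limma voom each called 1 member, PVR, higher with TSPAN7 IgA than with BDNF IgA, as did the fit without BDNF IgA replicate 2, and DESeq2 and the fit without a filter called 4 members higher with IgA against untreated cells, the added gene being PDCD1LG2. Besides library size scaling, upper quartile scaling, no filter and the 6 libraries alone ended the call of PVR against IgG, and the 6 libraries alone that of VTCN1 with BDNF IgA (edgeR adjusted p 0.0733, 0.0829, 0.0806 and 0.0606). The causes were not tested.

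The other changes of sign were of values near 0. With limma voom they were CD58 in IgA against IgG (0.0113), LGALS9 in IgA against untreated cells (0.0168), CD276 in IgG against untreated cells (0.0166) and ICAM1 in TSPAN7 IgA against BDNF IgA (-0.0344). In IgG against untreated cells they were CD276 and CD58 with upper quartile scaling (0.0024 and 0.0022) and CD276, CD47 and CD58 with library size scaling (0.0246, 0.0106 and 0.0228).

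Leaving out 1 library at a time gave 2 to 4 members higher with IgA against IgG, 3 to 5 with BDNF IgA, 3 to 5 with TSPAN7 IgA and 0 to 1 in TSPAN7 IgA against BDNF IgA. The count of 3 came without untreated replicate 1 of the second series for both, and for BDNF IgA also without BDNF IgA replicate 1. Signs changed within these ranges of log2 fold changes. In IgA against IgG LGALS9 ran from -0.32 to 0.0653 and CD58 from -0.12 to 0.0747, and against untreated cells from -0.30 to 0.0866 and from -0.10 to 0.0625. In IgG against untreated cells CD276 ran from -0.0505 to 0.0401, VTCN1 from -0.25 to 0.19, CD47 from -0.0523 to 0.0394, IDO1 from -0.22 to 0.0821, LGALS9 from -0.0329 to 0.0744, ICAM1 from -0.0778 to 0.15 and CD58 from -0.11 to 0.0797. CD276 ran from -0.0064 to 0.0913 in TSPAN7 IgA against untreated cells. In TSPAN7 IgA against BDNF IgA CD276 ran from -0.0564 to 0.0364, CD47 from -0.10 to 0.0164, IDO1 from -0.0483 to 0.15, ICAM1 from -0.0330 to 0.10 and CD58 from -0.0156 to 0.13.

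Counts over all genes moved more. Without single libraries they ran from 1339 to 2520 higher and 1227 to 2766 lower for IgA against IgG, 1365 to 2512 and 1236 to 2717 for IgA against untreated cells, 429 to 1505 and 293 to 1293 for BDNF IgA, 429 to 1156 and 328 to 1148 for TSPAN7 IgA, and 196 to 1554 and 286 to 1722 between those. Limma voom called 1339 and 1088 with BDNF IgA, 1270 and 1172 with TSPAN7 IgA and 1319 and 1432 between them, and the 6 libraries alone gave 1326 lower for IgA against IgG, 1168 lower for TSPAN7 IgA and 427 higher between the specific IgAs. At 0.01 the counts were 1114 and 927, 1166 and 964, 403 and 235, 429 and 342, and 223 and 355 in the same order. Without a filter 2 genes were lower with IgG than in untreated cells.

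Replicate numbers did not pair the libraries: same-numbered libraries of IgG and untreated cells, the most alike, correlated at 0.0560, 0.0625 and 0.247 in their deviations from group means. With the number as a replicate block, 3 members were higher with IgA against IgG, as without it, and it changed no other call of the 9 genes; it gave 2226 genes higher and 2114 lower in all in that comparison.

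Of 49 calls named from the related lists against untreated cells, 33 held under all alternatives run other than the threshold of 0.01, and 16 were lost under at least 1 of them. Lost when some single library was left out were KYNU, QPCTL and ITGB2 with IgA, KYNU, AHR, BIRC3, SOCS3 and CD70 with BDNF IgA, and PTPRC, PVRL3, TNFSF10, IRF1, IRF9 and LGALS3BP with TSPAN7 IgA. F11R and KRT7 with IgA were lost with library size scaling. Depth limits CD274, at 12 to 55 counts a library, and PDCD1LG2, at 0 to 9.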
